A study of Homo sapiens with 2 samples.

Results

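KIF5C, KIAA0825, AKAP6, PCBD2, ANKRD30BL, CPA6, COL21A1 and RGPD2 are 8 nuclear protein-coding genes whose counts were as high as those of mitochondrial tRNAs although no tRNA feature is listed within their spans. They were chosen from 20285 nuclear protein-coding features, among 741078 features in all, by at least 5000 R1 counts in replicate 1. That count is therefore a description of how they were chosen and is not a finding. The data are CLIP-seq libraries of the tRNA methyltransferase hTrmt13 from MDA-MB-231, an established human breast carcinoma cell line, in which RNA bound to the protein was recovered with an antibody, treated with AlkB enzymes that remove base modifications, and sequenced. All libraries belonged to 1 group with 2 replicates, each with a separate count table for mate R1 and mate R2. No allele or treatment is labelled, no input or control antibody library was analysed here, and the labels leave unsaid whether the replicates were separate cultures, so a spread between them may be technical.

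A nuclear gene span can hold copies of mitochondrial DNA. Over evolution, pieces of the mitochondrial genome have been inserted into chromosomes, where they are annotated as pseudogenes of the mitochondrial protein and rRNA genes. In the mitochondrial genome many tRNA genes lie between the protein genes, so an inserted piece may also carry a tRNA copy that an annotation does not list. Short reads of a mitochondrial tRNA and of such a copy can match both places. The sources used here do not say how reads with several matches were placed, so its part in these counts was not tested.

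The sequences that bear on the results are those of the mitochondrial tRNAs closest in level to KIAA0825 and RGPD2 and those of the pseudogenes beside which a copy of each tRNA would lie. On the hg19 build, MT-TE (mitochondrial tRNA-Glu) is chrM:14674-14742 on the minus strand and MT-TK (mitochondrial tRNA-Lys) is chrM:8295-8364 on the plus strand. MTND6P3, a pseudogene of the complex I subunit gene MT-ND6, is chr5:93904634-93905175 on the minus strand within KIAA0825. MTATP8P2, a pseudogene of the ATP synthase subunit gene MT-ATP8, is chr2:88124461-88124662 on the plus strand within RGPD2. Positions are those of the count tables, and letters are from GENCODE 29 transcripts on GRCh38. Each pseudogene is shown by its first 60 bases. Capitals mark the last 4 bases of MT-TE and the same 4 bases at the start of MTND6P3, and in the last pair the bases that differ between MTATP8P2 and MT-ATP8 (chrM:8366-8572).
MT-TE: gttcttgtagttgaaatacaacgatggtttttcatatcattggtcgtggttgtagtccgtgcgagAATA
MTND6P3: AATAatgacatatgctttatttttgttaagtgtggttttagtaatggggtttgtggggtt
MT-TK: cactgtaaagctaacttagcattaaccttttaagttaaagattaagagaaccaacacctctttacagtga
MTATP8P2: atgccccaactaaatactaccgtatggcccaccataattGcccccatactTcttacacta
MT-ATP8: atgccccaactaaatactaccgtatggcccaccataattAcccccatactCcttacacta

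The 4 tables held 27907799 and 20590398 counts for R1 in replicates 1 and 2, and 11246823 and 8793089 for R2. The cell line's labels were set against marker lists by R1 CPM, the count scaled to the total of its table. VIM, a mesenchymal filament gene, averaged 24.4 ± 15.1 CPM (SD, n = 2), and CDH1, an epithelial cadherin gene that is low in this line, averaged 1.96 CPM. The other mesenchymal markers, CD44 at 0.385, AXL at 0.578 and CAV1 at 0.937 CPM, were not above CDH1, EPCAM at 1.01 or KRT8 at 0.941 CPM, all listed as low in the line. ESR1, the other gene of that list, was at 0.557 CPM. The 4 mesenchymal markers summed to 15.2 and 37.4 CPM in replicates 1 and 2, mostly VIM, and the 4 genes low in the line to 3.01 and 5.93 CPM. The 6 neuronal markers summed to 6.99 and 15.3 CPM, led by SYT1 at 7.88 CPM. The 6 striated muscle markers summed to 3.33 and 8.11 CPM, with TNNT2 and MYL2 at 0 in both R1 tables. CLIP counts are not a transcriptome, so these levels do not measure expression.

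The 8 genes together held 241581 R1 counts in replicate 1 and 203581 in replicate 2. These were 0.866% (95% Clopper-Pearson interval 0.862 to 0.869%) and 0.989% (0.984 to 0.993%) of all R1 counts, or 0.927% ± 0.0870 (SD, n = 2). In R2 they held 88146 and 71996 counts, or 0.801% ± 0.0248 (SD, n = 2). The intervals cover counting error only, since PCR reads without molecular identifiers are not independent molecules. Set against the 22 mitochondrial tRNAs, which held 426976 and 322050 R1 counts, the 8 genes held 0.599 ± 0.0469 times as many (SD, n = 2). In R2 the ratio was 0.482 ± 0.0287 (SD, n = 2). KIF5C made up 45.6% and 46.5% of the R1 counts of the 8 genes, whereas KIAA0825 made up 54.6% and 57.3% of their R2 counts.

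KIF5C (ENSG00000168280.12, chr2:149632819-149883273, plus strand) encodes a kinesin-1 heavy chain, a motor protein of neurons. It had 110173 and 94599 R1 counts in replicates 1 and 2, and 196 and 193 R2 counts. Its R1 level was 4271 ± 457 CPM (SD, n = 2), above every mitochondrial tRNA, the highest of which was MT-TS2 at 1880 ± 118 CPM (SD, n = 2). It was the 1 gene of the 8 with more R1 counts than any mitochondrial tRNA in replicate 1.

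KIAA0825 (ENSG00000185261.14_5, chr5:93488671-93954302, minus strand) had 34771 and 30736 R1 counts and 48113 and 41253 R2 counts. It was the 1 gene of the 8 with more counts in R2 than in R1 in both replicates. Its R1 level was 1369 ± 175 CPM (SD, n = 2), between MT-TY at 1385 ± 162 and MT-TE at 1365 ± 176 CPM (SD, n = 2 each). Its range of mean ± SD overlapped with both. In replicates 1 and 2 it was at 1246 and 1493 CPM, beside 1270 and 1500 for MT-TY and 1241 and 1489 for MT-TE.

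AKAP6 (ENSG00000151320.10_4, chr14:32798479-33306887, plus strand) encodes an anchoring protein for protein kinase A known from muscle and brain. It had 31280 and 25011 R1 counts and 17247 and 12095 R2 counts, with an R1 level of 1168 ± 66.4 CPM (SD, n = 2). PCBD2 (ENSG00000132570.14_3, chr5:134240596-134343649, plus strand), which encodes a pterin carbinolamine dehydratase that also aids dimerization of HNF1, had 26051 and 19682 R1 counts and 11353 and 8679 R2 counts. Its R1 level of 945 ± 15.9 CPM (SD, n = 2) lay between MT-TP and MT-TS1. The ranges of mean ± SD overlapped for AKAP6 and KIAA0825 but not for PCBD2 and AKAP6. Within each replicate KIAA0825 was above AKAP6, with 1246 against 1121 CPM in replicate 1 and 1493 against 1215 CPM in replicate 2.

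ANKRD30BL (ENSG00000163046.15_2, chr2:132905164-133015542, minus strand) had 13148 and 13523 R1 counts and 6194 and 6819 R2 counts, with an R1 level of 564 ± 131 CPM (SD, n = 2). CPA6 (ENSG00000165078.12_2, chr8:68334273-68658620, minus strand), a secreted carboxypeptidase gene, had 12742 and 10317 R1 counts and 1610 and 1051 R2 counts, with an R1 level of 479 ± 31.5 CPM (SD, n = 2). The ranges of mean ± SD of ANKRD30BL and CPA6 overlapped, and MT-TM lay between them at a mean of 526 CPM. Within each replicate ANKRD30BL was the higher, with 471 against 457 CPM in replicate 1 and 657 against 501 CPM in replicate 2.

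COL21A1 (ENSG00000124749.16_4, chr6:55921388-56258892, minus strand) encodes a chain of a FACIT collagen, a class that attaches to collagen fibrils. It had 7536 and 6129 R1 counts but 104 and 96 R2 counts, with an R1 level of 284 ± 19.5 CPM (SD, n = 2). RGPD2 (ENSG00000185304.14_3, chr2:88055474-88125471, minus strand) encodes a RANBP2-like protein with a GRIP domain. It had 5880 and 3584 R1 counts and 3329 and 1810 R2 counts, with an R1 level of 192 ± 25.9 CPM (SD, n = 2), next to MT-TK at 190 ± 36.0 CPM (SD, n = 2). RGPD2 was the lowest of the 8 and the 1 gene whose R1 level was lower in replicate 2, with 174 CPM against 211 CPM in replicate 1.

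**Figure D1:**
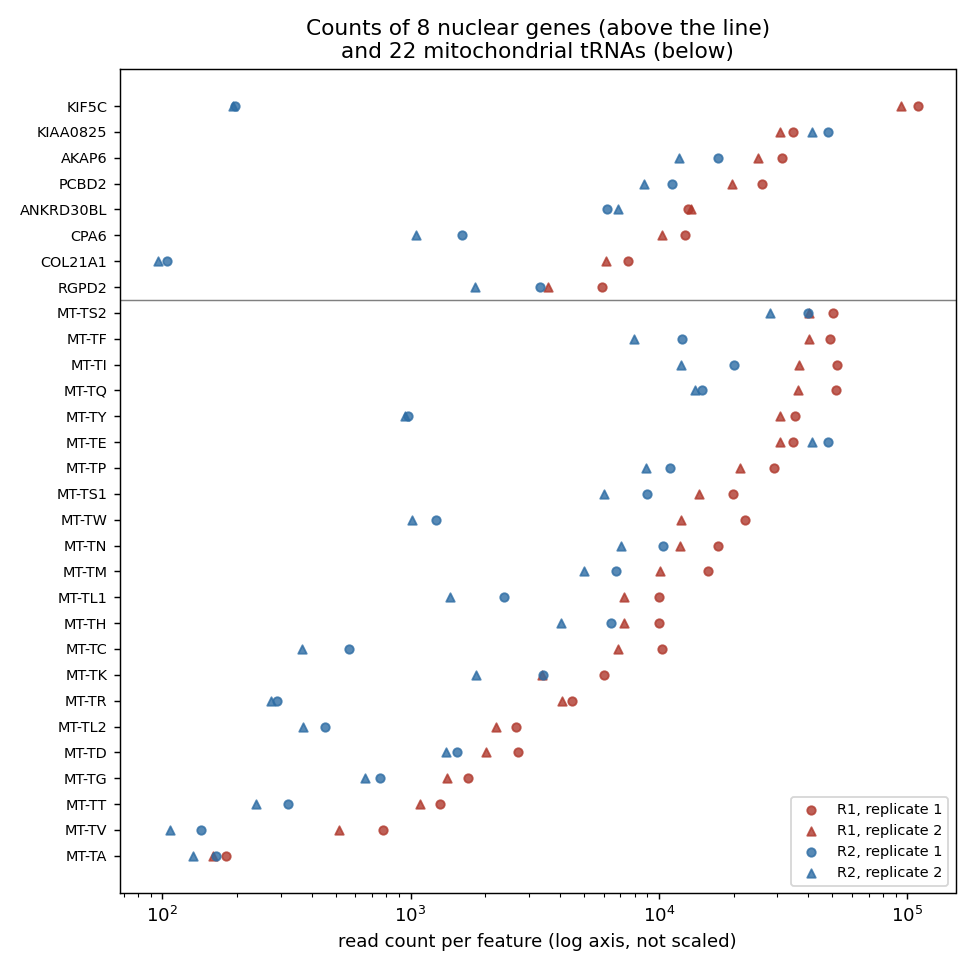
Read counts of the 8 nuclear genes (above the line) and the 22 mitochondrial tRNAs (below the line) in each of the 4 tables, on a log axis. Circles are replicate 1, triangles are replicate 2, red is R1 and blue is R2. KIF5C and COL21A1 have far fewer R2 counts than R1 counts, and KIAA0825 shows the same 4 positions as MT-TE.

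The median mitochondrial tRNA was at 441 CPM in R1 and 222 CPM in R2. Of the 8 genes, 6 were at or above it in R1 and 5 in R2. The threshold of 5000 was met by 8 of the genes in the table used to choose them, by 7 in R1 of replicate 2, and by 4 in each R2 table. Of the 20285 nuclear protein-coding features, 40 met it in R1 of replicate 1, which is 0.197%, and 31 of those have a tRNA feature in their span. The remaining 9 are the 8 genes and RPS29, a small ribosomal protein gene that lies just below RGPD2 with 5488 counts and is not among the genes described. Just under the threshold lay ACSL3, a fatty acid activation enzyme gene, with 4640 counts, and WDR74, a ribosome biogenesis gene, with 3555 counts.

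A comparison per length gave another picture from the counts. The genes span 70.0 to 508 kb, with a median of 287 kb, whereas the mitochondrial tRNAs are 59 to 75 bases long. In R1 of replicate 1 the genes had 22.3 to 440 counts per kb of span, against 2623 to 849712 counts per kb for the mitochondrial tRNAs. The highest gene was thus below the lowest mitochondrial tRNA per kb. These densities spread each gene's counts over its whole span, whereas in KIAA0825 nearly all R1 counts were also counted at a feature of 542 bases.

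The genes' relatives did not share their level. KIF5B, the widely expressed kinesin-1 heavy chain gene, was at 10.3 ± 5.89 CPM and KIF5A at 1.94 ± 1.38 CPM (R1, SD, n = 2 each). Among the 7 other genes of the RGPD list, RANBP2, a nuclear pore protein gene, was highest at 19.0 CPM. The RGPD genes are near-identical copies, so reads of 1 of them may be counted in another. Of the 13 other AKAP genes, AKAP12 was highest at 17.8 CPM and AKAP4 was at 0. PCBD1, the other pterin dehydratase gene, was at 1.90 CPM, and ANKRD30A and ANKRD30B were at 0.615 and 0.175 CPM. The 7 other carboxypeptidase genes ranged up to 0.689 CPM and the 9 other FACIT collagen genes up to 2.22 CPM. Every one of these relatives was below RGPD2, the lowest of the 8 genes. This gap is fixed in part by the choice of the genes by their counts.

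The levels of the genes were also compared between the replicates, beside those of other classes, with no test. The genes were chosen by a high R1 count in replicate 1, which favours a low ratio of replicate 2 over replicate 1. The R2 table of replicate 1 is the mate of that same library, so it is not free of the choice either. In R2 the log2 ratio of replicate 2 over replicate 1 CPM ranged between -0.52 for RGPD2 and 0.49 for ANKRD30BL, with a median of 0.05. The median was -0.06 over the 22 mitochondrial tRNAs, -0.19 over 468 cytosolic tRNA features, and 0.98 over 13028 nuclear protein-coding features whose count averaged 10 or more. In R1 the medians were 0.14 for the 8 genes, -0.01 for mitochondrial tRNAs and 1.11 for protein-coding features. In R2, 91.5% of the protein-coding features had a ratio above that of ANKRD30BL, the highest of the 8 genes, and in R1 95.5% did. With 1 library for each replicate this is a description of those libraries, and CPM depend on what else a library holds.

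The R1 counts of KIF5C were nearly equal to those of an antisense feature that overlaps it. That feature, KIF5C-AS1 (listed as AC105402.4, chr2:149624039-149646392, minus strand), shares 13574 bases with KIF5C and extends beyond it. It had 110048 and 94442 R1 counts, or 99.9% and 99.8% of those of KIF5C, and 81 and 60 R2 counts. The sources used here do not say whether the counting used strand, so reads of the gene and of its antisense partner cannot be told apart. Counts of the shared piece alone are not in the tables. If no read of KIF5C-AS1 lay outside KIF5C, subtraction leaves 125 and 157 R1 counts in KIF5C outside the shared piece, and 115 and 133 R2 counts. On that remainder the R2 count was 92.0% and 84.7% of the R1 count, beside a median of 87.9% and 84.7% over the 13028 protein-coding features. For the whole gene it was 0.178% and 0.204%.

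KIAA0825 was the other gene with an overlapping feature that held at least 50% of its R1 counts in both replicates. The share of all protein-coding genes with such a feature was not counted. MTND6P3 had 34488 and 30272 R1 counts, or 99.2% and 98.5% of those of KIAA0825. In R2 it had 194 and 140 counts, or 0.403% and 0.339%. Nearly all R1 counts of KIAA0825 were therefore also counted at MTND6P3, while 47919 and 41113 of its R2 counts were not. The counts do not show whether those R1 reads lay within MTND6P3 or only touched its edge. MT-ND6, the gene of which MTND6P3 is a copy, had 402 and 464 R1 counts. The neighbouring pseudogenes MTND5P12 and MTCYBP35 had at most 20 and 6 counts in any table.

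The gap between MTND6P3 and MTCYBP35 (chr5:93905176-93905244) is 69 bases long and holds no listed feature. In the mitochondrial genome the gap between MT-ND6 and MT-CYB is 73 bases long and holds MT-TE, which is 69 bases long. In the sequences printed above, the match of MTND6P3 to MT-ND6 begins at base 5, and its first 4 bases are the last 4 of MT-TE. The letters of the chromosome 5 gap itself were not used here, so a copy of MT-TE there was not read directly.

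The levels of KIAA0825 and MT-TE were nearly equal in all 4 tables. MT-TE had 34637 and 30666 R1 counts and 47946 and 41384 R2 counts, and KIAA0825 differed from it by 0.39, 0.23, 0.35 and -0.32% in those tables. KIAA0825 took 50.1% (95% Clopper-Pearson interval 49.7 to 50.5%) of the summed R1 counts of the pair in replicate 1. The interval held 50% in 4 of 4 tables. MT-TE was chosen as the nearest feature over these same tables, so this near-even split is a description and not a test. MT-TE was the nearest of all features to KIAA0825, with a Euclidean distance of 0.00938 in log2(CPM + 0.5) over the 4 tables. The nearest nuclear feature, tRNA-Leu-AAG-2-1, was at 0.578, and the next mitochondrial feature, MT-TS2, at 0.906. For KIAA0825 and tRNA-Leu-AAG-2-1 the interval held 50% in 0 of 4 tables. KIAA0825 also had the R2 excess of MT-TE, with R2 counts at 138% and 134% of R1, beside 138% and 135% for MT-TE. How reads that match both places were divided between them was not tested.

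**Figure D2:**
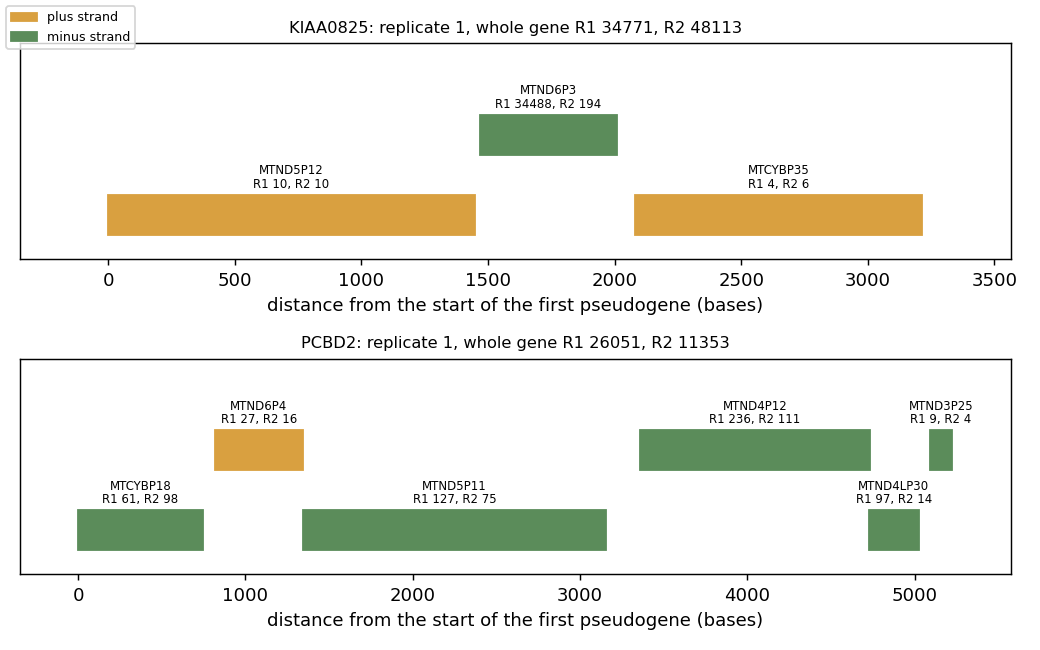
Pseudogenes of mitochondrial genes in KIAA0825 (upper panel) and PCBD2 (lower panel), by distance in bases along the chromosome, with R1 and R2 counts of replicate 1 for each. Orange boxes are on the plus strand and green boxes on the minus strand. MTND6P3 holds 34488 of the 34771 R1 counts of KIAA0825, whereas none of the 6 pseudogenes in PCBD2 exceeds 236.

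RGPD2 was the other gene that followed a mitochondrial tRNA closely. MT-TK had 6009 and 3386 R1 counts and 3405 and 1841 R2 counts, and RGPD2 differed from it by -2.15, 5.85, -2.23 and -1.68%. The distance was 0.0965, beside 0.397 for the nearest nuclear feature, tRNA-Leu-CAA-1-1, and 1.39 for MT-RNR2. The share of RGPD2 in the summed counts of the pair had an interval that held 50% in 3 of 4 tables, and in R1 of replicate 2 it was 51.4% (50.2 to 52.6%). For RGPD2 and tRNA-Leu-CAA-1-1 the interval held 50% in 2 of 4 tables. MT-TK was also chosen as the nearest feature over these same tables, so its split with RGPD2 is a description. MT-TK, like RGPD2, had a lower R1 level in replicate 2.

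The only pseudogene of a mitochondrial gene listed in the tables within RGPD2 is MTATP8P2, which is identical to MT-ATP8 at 94.1% of 202 aligned bases and differs from it at 2 of the 60 bases printed. It had 16 and 24 R1 counts and 3 and 3 R2 counts, under 1% of RGPD2 in each table. In the mitochondrial genome MT-TK ends at base 8364 and MT-ATP8 begins at base 8366, so a copy of MT-TK would lie just before the first base of MTATP8P2. That stretch has no listed feature, and its letters were not used here. The overlapping long non-coding RNA RP13-511M20.1 had 71 and 132 R1 counts, and 67 and 134 R2 counts.

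PCBD2 holds 6 mitochondrial pseudogenes in a row, of MT-CYB, MT-ND6, MT-ND5, MT-ND4, MT-ND4L and MT-ND3. Together they had 557 and 720 R1 counts, or 2.14% and 3.66% of those of PCBD2, and 318 and 476 R2 counts. The highest was MTND4P12 with 236 and 336 R1 counts. Of the 3 gaps whose mitochondrial counterpart holds tRNA genes, 1 was equal to it in length and the others were 1 base longer. A further gap, between MTND6P4 and MTND5P11, is 3 bases long where the mitochondrial genome has 0. The gap of 73 bases (chr5:134259740-134259812) corresponds to 73 bases that hold MT-TE, the gap of 200 bases (chr5:134262150-134262349) to 199 bases that hold MT-TH, MT-TS2 and MT-TL2, and the gap of 66 bases (chr5:134264017-134264082) to 65 bases that hold MT-TR. So nearly all counts of PCBD2 lay outside the listed pseudogenes, and where in the remaining span they lay is not given by the tables.

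The mitochondrial feature nearest to PCBD2 was MT-TP (mitochondrial tRNA-Pro), at a distance of 0.203, although MT-TP is not one of the tRNAs of those gaps. MT-TP had 29119 and 21304 R1 counts and 11073 and 8873 R2 counts. PCBD2 differed from it by -10.5% and -7.61% in R1, a difference beyond counting error, and by 2.53% and -2.19% in R2. CROCC, a ciliary rootlet protein gene, was almost as near at 0.257. The span of CROCC holds tRNA-Glu-TTC-3-1. That tRNA had 16125 and 13664 R1 counts, beside 26139 and 20219 for CROCC.

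AKAP6 holds MTCO1P2 (chr14:32953304-32954006, minus strand), a pseudogene of the cytochrome c oxidase subunit gene MT-CO1 that is identical to it at 92.0% of 703 bases. The first 60 bases of it and of MT-CO1 (chrM:5904-7445, plus strand) are shown with their 3 differences in capitals. They show how close this nuclear copy is to its mitochondrial gene over those bases.
MTCO1P2: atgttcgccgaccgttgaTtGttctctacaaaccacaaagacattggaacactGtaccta
MT-CO1: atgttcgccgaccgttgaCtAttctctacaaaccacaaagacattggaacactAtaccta
MTCO1P2 had 347 and 431 R1 counts, or 1.11% and 1.72% of those of AKAP6, and 235 and 297 R2 counts. The nearest feature to AKAP6 was not mitochondrial but the nuclear tRNA-Arg-TCG-2-1 at 0.220, with 33811 and 25408 R1 counts, beside 0.820 for MT-TP.

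In ANKRD30BL the highest overlapping feature was the microRNA gene MIR663B (chr2:133014539-133014653, minus strand). It had 890 and 1671 R1 counts, or 6.77% and 12.4% of those of ANKRD30BL, and 192 and 446 R2 counts. The mature RNA annotated for this gene, from RefSeq on GRCh38.p14, is shown to identify the gene, with the seed, bases 2 to 8, in capitals. The counts are of the whole gene feature, and the mature arm is not counted apart in the tables.
hsa-miR-663b: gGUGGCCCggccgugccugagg
RNA5-8SP5, a pseudogene of 5.8S rRNA, had 1 R1 count in replicate 1 and 0 in the other tables. The nearest mitochondrial feature was MT-TM at 0.680, and RP11-108M9.3, a non-coding RNA gene at the locus of tRNA-Glu-TTC-3-1, was nearer at 0.466.

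Among the features counted, none that overlaps CPA6 or COL21A1 had an appreciable count. In CPA6 the highest was RP11-396J6.1 with 2 and 2 R1 counts, and in COL21A1 every overlapping feature was at 0 in all 4 tables. Both genes were nearer to a nuclear tRNA than to a mitochondrial feature, CPA6 to tRNA-Ser-GCT-6-1 at 0.379 and COL21A1 to tRNA-Lys-TTT-2-1 at 0.807. KIF5C was far from every feature that does not overlap it. Of those the nearest was tRNA-Cys-GCA-3-1 at 2.15, and among mitochondrial features MT-RNR1 at 3.77. Features that overlap a gene, such as KIF5C-AS1, were left out of its ranking.

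Across the 8 genes, 3 had a mitochondrial feature as the nearest of all features, namely KIAA0825, PCBD2 and RGPD2. Of the 176 pairs of a gene and a mitochondrial tRNA, 1 was within 5% in all 4 tables, 2 within 10% and 3 within 25%. Nearness was measured over 4 tables of 2 libraries, so it rests on few independent values. How often other features lie as near to a mitochondrial feature was not counted, so these numbers are a description.

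**Figure D3:**
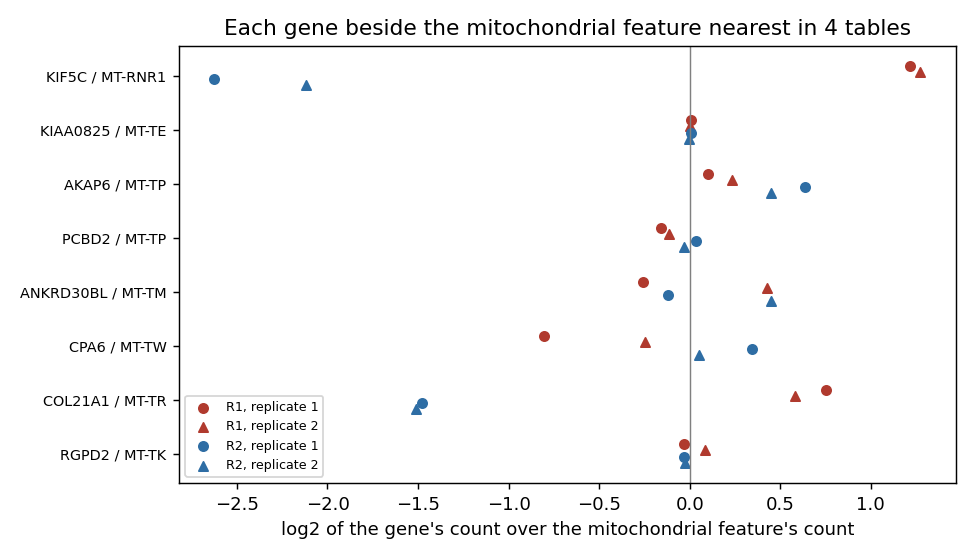
Log2 of each gene's count over that of the mitochondrial feature nearest to it, in the 4 tables. Red is R1, blue is R2, circles are replicate 1 and triangles are replicate 2. KIAA0825 beside MT-TE and RGPD2 beside MT-TK lie at 0 in all tables within 0.1, whereas KIF5C beside MT-RNR1 lies above 0 in R1 and below 0 in R2.

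RefSeq, on the GRCh38.p14 assembly, places a pseudogene of a mitochondrial gene in the span of 5 of the 8 genes. They are KIAA0825 with 3, AKAP6 with 1, PCBD2 with 6, CPA6 with 7 and RGPD2 with 2. Those in CPA6 were not among the features counted, and of those in RGPD2 only MTATP8P2 was, so the others have no count here. ANKRD30BL holds 2 rRNA pseudogenes, and none is listed in KIF5C or COL21A1. Of 20043 protein-coding genes, 42 hold such a pseudogene, or 0.210%, and of the 5577 genes at least as long as the shortest of the 8 it is 35, or 0.628%. As the genes were chosen by count, these shares are a description. The 34 other host genes found in the tables, none with a tRNA feature, are below 5000 R1 counts in replicate 1 by the rule that chose the 8 genes. They had between 0 and 642, with a median of 35.5, and DYNC2H1, a dynein motor gene of cilia, was highest.

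Each mitochondrial pseudogene named here, and MIR663B, lay within introns of its host gene in GENCODE 29 on GRCh38, since none shared a base with an exon of that gene. The pseudogenes compared were between 86.0 and 95.8% identical to their mitochondrial genes. Those in KIAA0825 were the lowest, with MTND6P3 at 89.0%, MTND5P12 at 86.9% and MTCYBP35 at 86.0%. The spans also overlap 385 piRNA features, of which 18 had a count, with at most 2 counts each.

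The mates of a library gave unequal levels for several of the genes. A gene was counted as higher or lower in R1 where its CPM, after 0.5 was added to each count, differed at least 2-fold from R2 in both replicates. Of 18237 features whose count averaged 10 or more over the tables, 305 were higher in R1, which is 1.67%, and 7108 were lower, which is 39.0%. By this rule 3 of the 8 genes were higher in R1, namely KIF5C, CPA6 and COL21A1, and 1 was lower, KIAA0825. The genes were chosen by R1 counts of replicate 1, which favours a high R1 over R2 ratio in that replicate. In replicate 2 alone the same 3 genes were higher, beside 382 of the 18237 features, and KIAA0825 was lower, beside 8231.

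The sizes were far apart. KIF5C had a log2 ratio of R1 over R2 of 7.76 ± 0.08, COL21A1 of 4.81 ± 0.07 and CPA6 of 1.87 ± 0.28 (SD, n = 2 each). KIAA0825 was at -1.72 ± 0.09 (SD, n = 2), the same as MT-TE at -1.72. RGPD2 at -0.37 ± 0.18, AKAP6 at -0.32 ± 0.19, ANKRD30BL at -0.23 ± 0.01 and PCBD2 at -0.08 ± 0.05 (SD, n = 2 each) were near 0. The median was -0.16 over the 8 genes and 0.13 over the mitochondrial tRNAs, beside -1.05 over all features tested, and 7 of the 8 genes were above that last median. The ratio over all features depends on the scaling by table totals. Relative to all features, with TMM or DESeq2 factors that bring their median to -0.01, the same 3 genes were higher in R1 but KIAA0825 was no longer lower, and AKAP6, PCBD2, ANKRD30BL and RGPD2 turned above 0.

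**Figure D4:**
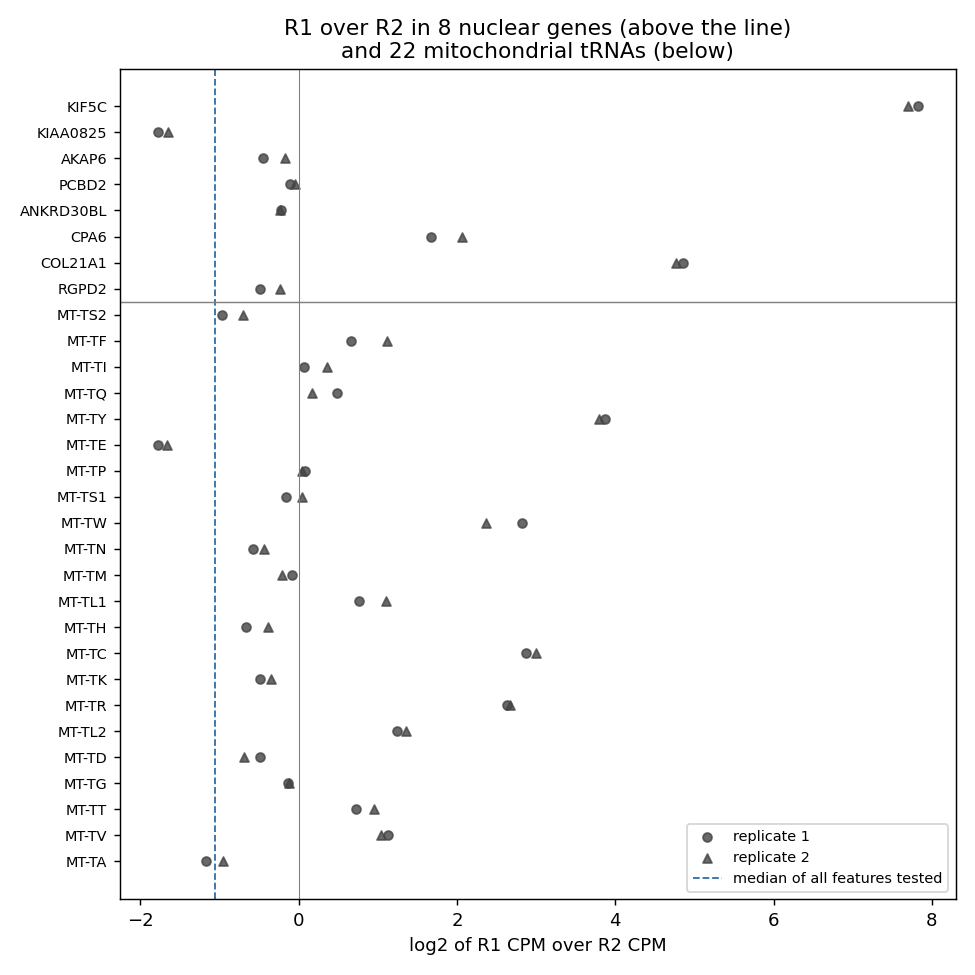
Log2 of R1 CPM over R2 CPM for the 8 genes (above the line) and the 22 mitochondrial tRNAs (below the line), with circles for replicate 1 and triangles for replicate 2. The dashed line is the median over the 18237 features tested, at -1.05. KIF5C and COL21A1 lie to the right of every mitochondrial tRNA, and KIAA0825 and MT-TE lie at the same place left of the line.

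Mitochondrial tRNAs also differed between mates, with 6 of 22 higher in R1 (MT-TV, MT-TW, MT-TC, MT-TY, MT-TR and MT-TL2) and 1, MT-TE, lower. The R2 count was 2.76 to 138% of the R1 count over these tRNAs in replicate 1, with the lowest at MT-TY. KIF5C at 0.178% and COL21A1 at 1.38% were below that range, and CPA6 at 12.6% was within it. In replicate 1 the other kinesin-1 heavy chain genes, KIF5B and KIF5A, had R2 at 89.4% and 88.9% of R1. The FACIT collagen genes with 10 or more R1 counts, COL14A1, COL19A1 and COL22A1, had R2 at 94.4%, 88.2% and 66.7%, and CPB2, the carboxypeptidase gene with 10 counts, at 90.0%. The low counts of these relatives limit the comparison.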

How the data were processed

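CLIP-seq of hTrmt13 in MDA-MB-231 cells was analysed from 4 deposited tables, R1 and R2 of 2 replicates. Each table as the authors deposited it holds raw counts of reads for 741091 lines, of which 13 repeats were dropped. Per the submitters' processing notes, the tools were bedtools 2.24.0 and Bowtie2 2.3.5.1, with the hg19 (GRCh37) build. For alignment options, the placing of reads with several matches and the use of strand, the answer is not given in the sources used here. CPM used table totals, and log2 ratios used a pseudocount of 0.5 on counts. With 1 group there was no test between conditions; values are means ± SD of 2 replicates, Clopper-Pearson intervals (95%) cover counting error, and features needed a mean count of 10 for the mate comparison. The fold rule and the distance step were checked on simulated data, and the overlap step was not.

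The genes, the lists and the tests were chosen with earlier results of these data known. The comparison of the replicates by class was added after their values were seen. Named were the 8 genes, and for each the overlapping feature with at least 50% of its R1 counts in replicate 1. Where there was none, at least 1 of the 3 highest was named if any had a count. The nearest mitochondrial features, and the nearest others that do not overlap the gene, by Euclidean distance over the 4 tables were also named. So were mitochondrial tRNAs next to a gene in order of R1 CPM, gene families, and protein-coding features next to the threshold of 5000 counts. Features outside these rules (the gap tRNAs, MTND5P12, MTCYBP35, MT-ND6, DYNC2H1), and RNA5-8SP5 within them, were chosen after their values were seen. Pseudogenes were matched to mitochondrial genes with GENCODE 29, and RefSeq was used for names and neighbours. Software was Python 3.11.15 with matplotlib 3.10.9, scipy 1.17.1, pandas 2.3.3 and numpy 2.4.6, and R 4.3.3 with DESeq2 1.42.0 and edgeR 4.0.16 for scaling factors. The alternatives tried were the R2 tables, the sum of the mates, each replicate alone, other denominators, scalings, pseudocounts, fold thresholds and minimum counts, and stricter overlaps.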

Additional observations from a re-analysis of the deposited data

How the results depend on the processing

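The summed share of the 8 genes, 0.927% in R1, was 0.801% in R2, 1.61% of a total without the 10 highest features, and 7.58% with tRNA features and the features overlapping them left out. The ratio to the mitochondrial tRNAs, 0.599 in R1, was 0.482 in R2. No gene was lower in R1 with TMM factors, DESeq2 size factors or a 4-fold threshold (0 against 1). The 2 genes with an overlapping feature of at least 50% of their R1 counts became 1 with features wholly inside the gene, 1 with features on the same strand and 0 in R2. Relative to a shift of the median of all features to -0.01, the log2 ratio of R1 over R2 turned to 0.73 and 0.73 in AKAP6, 0.97 and 0.96 in PCBD2, 0.81 and 0.81 in ANKRD30BL and 0.68 and 0.68 in RGPD2 with TMM and DESeq2 factors, and KIAA0825 was at -0.67 with TMM. Features lower in R1, 7108 of 18237, numbered 193 with TMM, 196 with DESeq2 factors, 214 at 4-fold, 13924 without replicate 2, 13244 of 34827 at a minimum mean count of 1 and 683435 of 741078 with no minimum, where the pseudocount alone makes a feature with 0 counts in every table count as lower. Features higher in R1, 305, numbered 628, 625 and 152 with TMM, DESeq2 factors and 4-fold, and 648 with either lower minimum. Without replicate 1 or 2, the number of genes higher (3) and lower (1) in R1 was the same. Of 31 values of the main comparisons, 10 moved. Of 48 levels of single genes 28 moved, of 40 log2 ratios of R1 over R2 8 moved and 8 reversed, and of 16 percentages of all features 9 moved. No paired analysis was possible because all samples were of 1 group; the R1 over R2 ratios were taken within each library. Depth limits the R2 values of KIF5C and COL21A1, which rest on under 200 counts per table.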
